A study of Mus musculus with 6 samples.

Results

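The transcripts described here belong to a set of 9 genes that mark naive and central memory T cells, namely Il7r, Ccr7, Klf2, Klf3, S1pr1, Lef1, Tcf7, Satb1 and Foxo1. The members were chosen by name, and every probe set whose platform symbol was one of these names was taken. This gave 16 of the 22690 probe sets on the array. They covered 8 of the 9 genes, since no probe set carried the symbol Tcf7 in the annotation used, and those 8 genes stand among 12393 named genes in all.

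The study compared C57BL/6 mice that lack miR-155 (KO) with wild-type (WT) mice. CD4 T cells were taken from spleen and lymph nodes with magnetic beads and stimulated through CD3 and CD28 (antibodies at 1 µg/mL) over 3 days of culture, with 20 U/mL of interleukin 2. All arrays of both genotypes are of such stimulated cells, so no resting cells were measured. Each genotype has 3 arrays, which the series description assigns to 3 separate mice. The labels name the mice as miR-155 KO with no restriction to a cell type, and they state no ages.

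Naive T cells circulate through lymph nodes in a resting state, and central memory cells share much of that behaviour. The transcription factor Foxo1 sustains it by driving Il7r, Klf2 and Ccr7, while Klf2 in turn drives S1pr1, and Tcf7 and Lef1 encode related factors of the Wnt pathway that keep T cells able to self-renew. Stimulation through the T cell receptor and CD28 activates PI3 kinase and Akt, which moves Foxo1 out of the nucleus, and the genes of the set are then turned down. MiR-155, a microRNA induced by the same stimulation, pairs with target transcripts through its seed.

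The mature sequences of the deleted microRNA are shown because the seed is the part through which targets are recognised. They are from RefSeq (GRCm38.p6, plus strand, chr16:84714143-84714165 and chr16:84714182-84714202), with the seed, bases 2 to 8, in capitals.

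mmu-miR-155-5p: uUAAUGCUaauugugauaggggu

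mmu-miR-155-3p: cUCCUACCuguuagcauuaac

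The 3 promoters below belong to the members whose probe sets had the smallest p values in either direction, Il7r and Satb1 on the higher side and Klf3 on the lower side. Each is printed 5′ to 3′ on the strand of the gene, from RefSeq (GRCm38.p6), as the bases before an annotated transcript start that lie outside the annotated gene. Capitals mark a match to 1 of 3 motifs searched in the 250 bases before the start on both strands. The motifs were GTAAACA, bound by FOXO factors, TCAAAG, bound by TCF and LEF factors, and CACACCC, bound by KLF factors.

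Il7r (minus strand, chr15:9529942-9530126): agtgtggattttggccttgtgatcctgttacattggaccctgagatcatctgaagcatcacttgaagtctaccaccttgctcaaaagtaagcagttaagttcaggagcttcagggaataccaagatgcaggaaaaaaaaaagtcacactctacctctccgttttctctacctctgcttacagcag

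Satb1 (minus strand, chr17:51833291-51833540): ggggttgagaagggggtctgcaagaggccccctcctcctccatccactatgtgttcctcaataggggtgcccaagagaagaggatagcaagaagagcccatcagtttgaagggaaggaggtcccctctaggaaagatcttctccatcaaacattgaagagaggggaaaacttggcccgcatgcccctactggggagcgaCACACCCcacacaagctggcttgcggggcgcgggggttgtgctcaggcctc

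Klf3 (plus strand, chr5:64803271-64803520): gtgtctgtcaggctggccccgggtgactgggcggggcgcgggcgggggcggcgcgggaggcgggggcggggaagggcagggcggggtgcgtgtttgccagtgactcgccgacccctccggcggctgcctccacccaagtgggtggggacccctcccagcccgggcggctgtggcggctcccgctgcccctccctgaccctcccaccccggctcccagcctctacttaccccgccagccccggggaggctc

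Of the 9 members, 7 had a listed promoter, with 15 windows among them, 5 of Satb1 and 4 of Lef1. The FOXO letters were in 0 of the 15 windows, and 3.17% of all 32851 windows of the same length held them. The KLF letters were in 2, 1 of Satb1 (first base 51 bases before the start, shown above) and 1 of Tcf7, against 6.93% of all windows. The TCF and LEF letters were in 1, where they occurred 2 times without overlapping another motif. That window belongs to an internal start of Lef1 and is set against 13.8% of all windows. G and C made up 44.0% of the 250 bases of Il7r, 58.0% of those of the Satb1 window shown and 78.4% of those of Klf3, against a median of 52.4% over all windows. These letters describe the windows only, and sites farther away were not searched.

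Some facts of the arrays bear on all that follows. Mir155hg, the host gene of miR-155, had log2 levels of 3.51 to 4.45 in KO and 6.59 to 8.21 in WT, so each array was on the side its label gives. Which part of the locus its probe set covers is not given in the sources used here. Its log2 difference of -3.55 did not pass over all genes (limma adjusted p = 0.545). Failing the adjusted test therefore does not show that a gene was unchanged. In both genotypes replicate 1 carried Xist with Y-linked genes near background, replicate 2 carried Y-linked genes with low Xist, and replicate 3 carried both, with Xist at 12.6 on KO and WT alike and Eif2s3y at 10.0 and 10.2. One mouse per array is therefore not certain for the replicate 3 arrays, and values without them are given beside the main results. Along the axis of largest variance (61.9% of it), KO replicate 1 lay at one end (-41.3). WT replicate 1 (26.1) lay at the other, with WT replicate 2 (23.8) near it. The axis crossed the genotypes, with KO replicate 2 at 13.4, KO replicate 3 at -14.6 and WT replicate 3 at -7.36. Over the 9295 genes tested with limma, 0 had an adjusted p under 0.05 (the smallest was 0.545) and 691, or 7.43%, had an unadjusted p under 0.05. With array weights, which put most of the weight on 1 array per genotype, 3575 genes passed, Il7r, Ccr7, Satb1 and Foxo1 among them (values at the end).

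As a set the naive and central memory genes did not differ in 1 direction. All 8 genes with a probe set passed the filter on low values. Of these, 5 were higher and 3 lower in KO, 0 had an adjusted p under 0.05, and the median difference was 0.21 log2 units, against a median of -0.0036 over all genes tested, of which 49.2% were higher. Unadjusted, 2 of the 8 members had a p under 0.05, Il7r and Satb1, both higher in KO, where 3.57% of all genes were so. That count was 0 without WT replicate 1, WT replicate 2 or KO replicate 3 and 1 without KO replicate 1 or 2. Levels of the genotypes did not overlap in 1 member, Satb1, against 12.8% of all genes. Without WT replicate 1 the split became 4 higher and 4 lower with a median of -0.0072, and without KO replicate 1 it was again 4 and 4, with a median of 0.029. Without both replicate 3 arrays it was 5 and 3 with a median of 0.38.

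**Figure D1:**
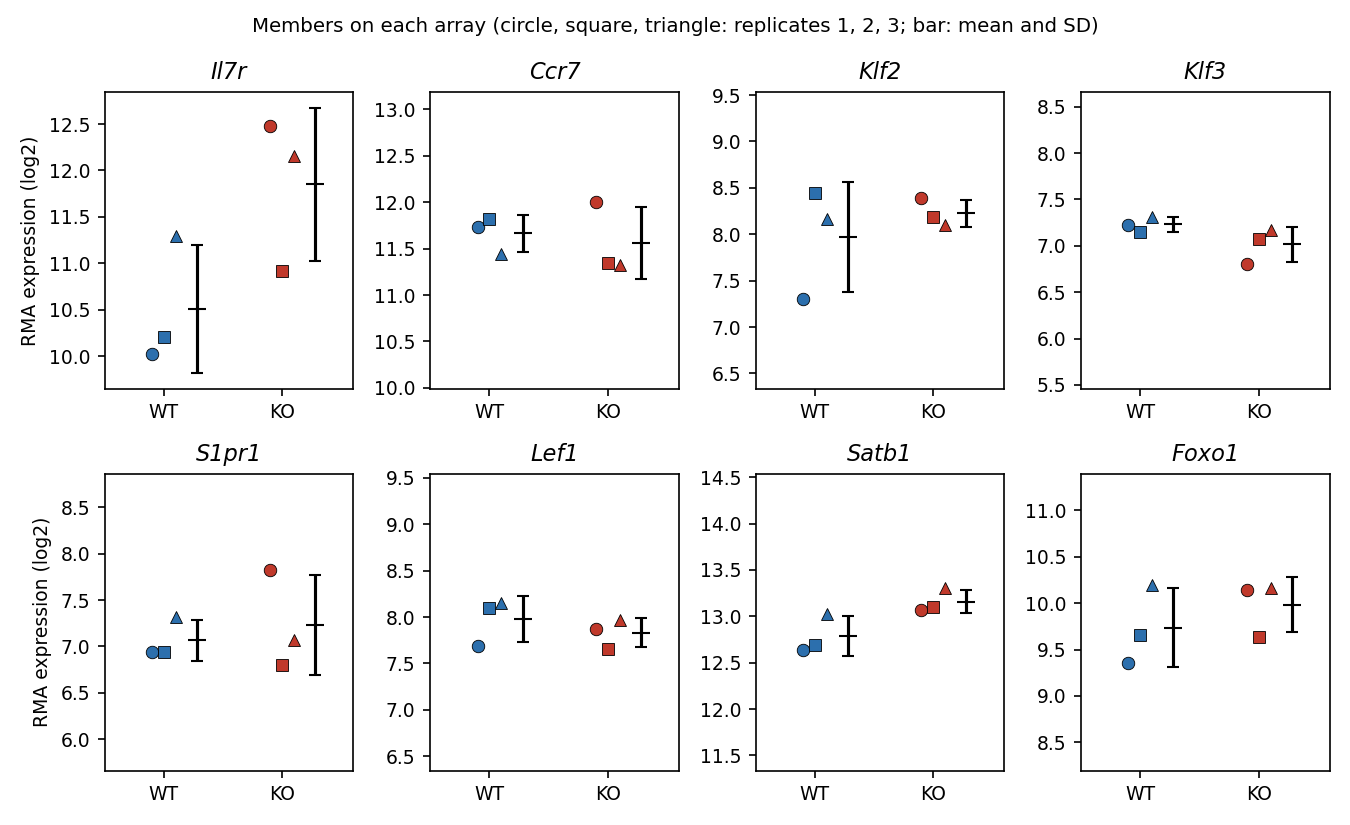
RMA expression (log2, vertical axis, the same span of units in each panel) of the 8 measured members on the 3 WT and 3 KO arrays, 1 probe set per gene, with points for the arrays and a bar for the mean and SD of each genotype. Il7r spans the widest range, and Satb1 is the member whose KO points all lie above all WT points.

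Il7r encodes the alpha chain of the interleukin 7 receptor, through which resting T cells receive their survival signal. It measured 12.5, 10.9 and 12.2 on KO replicates 1, 2 and 3 and 10.0, 10.2 and 11.3 on WT replicates 1, 2 and 3 (probe set 1448575_at, log2 level). KO replicates 1 and 3 were above every WT array, while KO replicate 2 lay below WT replicate 3, so the genotypes overlapped. The KO mean was 11.8 ± 0.83 (SD, n = 3), and the WT mean was 10.5 ± 0.69 (SD, n = 3). The log2 difference was 1.34 ± 0.49 (SE), or 2.54-fold, with a 95% interval from 0.16 to 2.52. It did not pass over all genes (limma adjusted p = 0.631, unadjusted 0.0313), and the exact two-sided permutation p was 0.2, where 3 against 3 arrays can reach 0.1 at the least.

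The other Il7r probe set, 1448576_at, gave the same order of arrays. Its levels were 10.9, 9.06 and 10.3 in KO and 8.09, 8.25 and 9.33 in WT, with a log2 difference of 1.55 ± 0.54 (SE). Both probe sets read the same RNA on the same arrays, so they show that the measurement repeats and add no mice. With 1 array left out, the difference of 1448575_at lay between 1.03 (without KO replicate 1) and 1.81 (without KO replicate 2), and it was 1.58 without both replicate 3 arrays. Between arrays of the same replicate number, whose sex-linked transcripts match across genotypes, Il7r was higher in KO by 2.45, 0.71 and 0.86 log2 units. Each of these values sets 1 array against 1, and no test was made on them. In a culture of many cells, more cells that carry Il7r and more Il7r RNA in each cell cannot be told apart.

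Genes with a profile most like that of Il7r over the 6 arrays were sought among the 9295 tested, by the root mean square difference between mean-centred log2 levels. The closest were Cxcr6, a chemokine receptor gene (0.17), Grina (0.19), Smc5, a subunit gene of a chromosome maintenance complex (0.21), Lgmn, the gene of the protease legumain (0.22), and Arap2 (0.22). None of the other members was as near, the nearest being Foxo1 at 0.65. The measure takes in size as well as shape. Il7r spanned 2.45 log2 units over the arrays and no other member more than 1.14 (Klf2). The distances therefore do not show whether other members rise and fall with Il7r. In each of the 5 genes KO replicate 2 lay below WT replicate 3, as in Il7r, and their log2 differences ran from 1.18 in Arap2 to 1.57 in Cxcr6, with a limma adjusted p of 0.631 for all 5. Since the 5 were chosen for matching Il7r on these arrays, this likeness follows from the choice and adds no evidence on Il7r.

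Satb1 encodes a chromatin organiser that is abundant in thymocytes and resting T cells. Its probe set 1416008_at was at 13.1, 13.1 and 13.3 in KO and at 12.6, 12.7 and 13.0 in WT (log2 level). The lowest KO array lay just above the highest WT array, WT replicate 3, so the genotypes did not overlap. The KO mean was 13.2 ± 0.12 (SD, n = 3) against a WT mean of 12.8 ± 0.21 (SD, n = 3). KO thus exceeded WT by 0.37 ± 0.15 (SE) log2 units, or 1.30-fold. The limma adjusted p was 0.631 (unadjusted 0.0421). The exact permutation test gave 0.1, the floor of this design.

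All 3 Satb1 probe sets were higher in KO. Probe set 1416007_at differed by 0.50 ± 0.13 (SE), with KO arrays from 12.86 to 12.96 and WT arrays from 12.19 to 12.62, and did not overlap. Probe set 1436182_at differed by 0.48 ± 0.24 (SE) and overlapped, since KO replicate 1 (10.4) lay below WT replicates 2 (10.44) and 3 (10.5). Between arrays of the same number the 1416008_at difference was 0.44, 0.41 and 0.27, and every probe set of the gene was higher in KO for all 3 numbers. With 1 array left out it lay between 0.30 and 0.50, and it was 0.43 without both replicate 3 arrays.

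Foxo1, the transcription factor upstream of several members, measured 10.1, 9.64 and 10.2 in KO and 9.36, 9.65 and 10.2 in WT (probe set 1416983_s_at, log2 level). The highest array was WT replicate 3 and the lowest WT replicate 1, so the KO arrays lay within the WT range. The log2 difference was 0.24 ± 0.25 (SE), with a 95% interval from -0.36 to 0.85 (limma adjusted p = 0.742, exact permutation p = 0.7). It was 0.055 without WT replicate 1, and the arrays of the same number differed by 0.78, -0.016 and -0.032.

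The weaker Foxo1 probe sets differed by 0.37 (1416981_at), 0.21 (1416982_at) and 0.15 (1456529_at). In the last of them the genotypes did not overlap, at 5.04 to 5.10 in KO and 4.86 to 4.96 in WT. The dimmest gene tested averaged 4.72, and near such levels RMA compresses differences. Foxo1 protein is controlled largely by phosphorylation and its place in the cell, neither of which an array measures.

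Klf2 encodes a zinc finger factor that keeps T cells quiescent and drives S1pr1. It measured 8.39, 8.19 and 8.10 in KO and 7.30, 8.44 and 8.16 in WT (log2 level). WT replicate 1 was the lowest array and WT replicate 2 the highest, and the KO arrays lay between them. The log2 difference was 0.25 ± 0.29 (SE), with a 95% interval from -0.45 to 0.95 (limma adjusted p = 0.767). Without WT replicate 1 it was -0.079, so its sign rested on that array.

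Klf3, a factor of the same family that acts as a repressor, was lower in KO on each of its 3 probe sets. The brightest, 1431630_a_at, measured 6.80, 7.07 and 7.17 in KO and 7.22, 7.15 and 7.32 in WT. KO replicate 3 lay above WT replicate 2, so the genotypes overlapped on it, with a log2 difference of -0.22 ± 0.14 (SE) and a limma adjusted p of 0.640 among genes. On 1429360_at the levels were 5.99, 6.22 and 5.90 in KO and 6.64, 6.61 and 6.40 in WT. All KO arrays were below all WT arrays there, and the log2 difference was -0.51 ± 0.13 (SE). On 1421604_a_at they were 4.97, 5.29 and 5.33 against 6.02, 6.02 and 5.48, again without overlap, and the log2 difference was -0.65 ± 0.19 (SE).

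In the fit of all 22626 probe sets, 1429360_at and 1421604_a_at had unadjusted limma p values of 0.00598 and 0.0116, an adjusted p of 0.705 each, and an exact permutation p of 0.1. With 1 array left out they stayed between -0.60 and -0.44 and between -0.83 and -0.54. All 3 probe sets were lower in KO for each of the 3 replicate numbers. With the mean of its probe sets in place of the brightest, Klf3 differed by -0.46 as a gene (limma adjusted p = 0.643, unadjusted 0.00916). The KO levels of 1421604_a_at are near those of the dimmest genes tested, so the size of its difference is uncertain. Among the 3 probe sets the difference was smallest on the brightest, the one on which the genotypes overlapped.

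**Figure D2:**
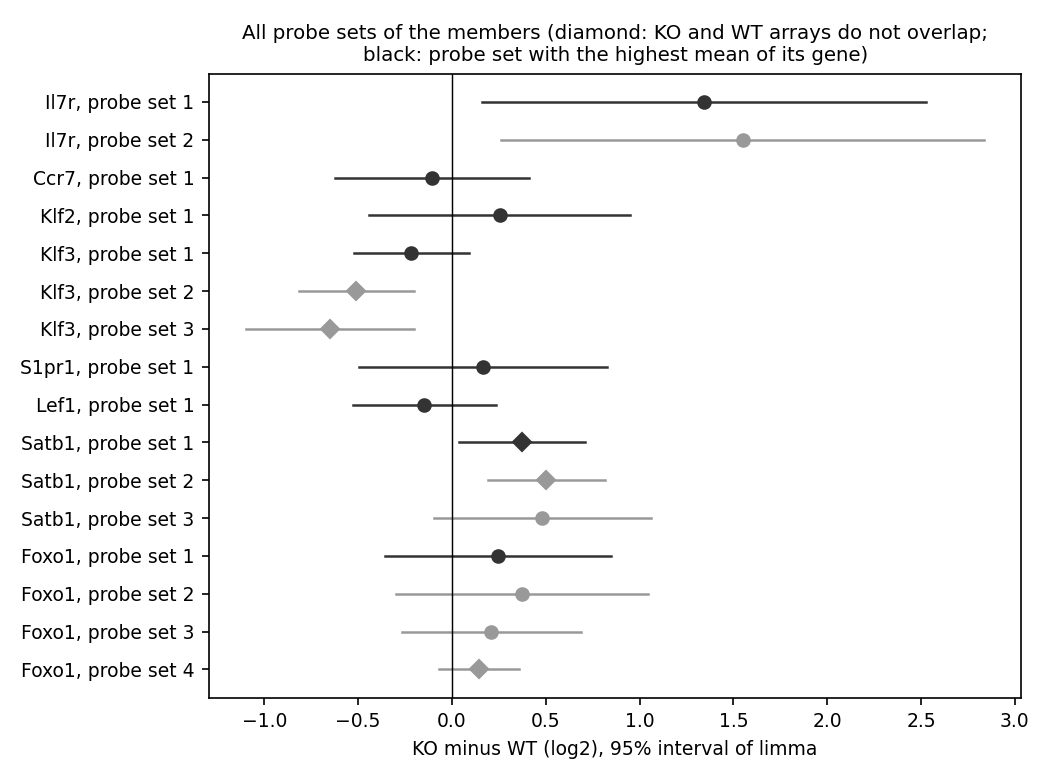
Log2 difference KO minus WT (horizontal axis) with the 95% interval of limma for all 16 probe sets of the members, ordered by gene and, within a gene, by mean level. The probe sets of Il7r, Satb1 and Foxo1 all lie above 0 and those of Klf3 all lie below it.

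Over all 16 probe sets of the members, 11 were higher and 5 lower in KO, and 0 had an adjusted p under 0.05. Unadjusted, 6 had a limma p under 0.05, of which 2 belonged to each of Il7r, Satb1 and Klf3, against 6.55% of all probe sets. The genotypes did not overlap on 5, against 11.7% of all probe sets. Since probe sets of a gene share its transcript, these counts speak of 4 genes (Il7r, Satb1, Klf3 and Foxo1) and not of independent features.

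The receptors that guide T cells through lymph nodes differed by less than their spread. Ccr7, the chemokine receptor that brings T cells into lymph nodes, measured 12.0, 11.3 and 11.3 in KO and 11.7, 11.8 and 11.4 in WT (log2 level). KO replicate 1 was the highest array and the other KO arrays were the lowest. The log2 difference was -0.11 ± 0.22 (SE), with a 95% interval from -0.63 to 0.42 (limma adjusted p = 0.874), and without KO replicate 3 it was 0.011.

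S1pr1 encodes the sphingosine 1-phosphate receptor that lets T cells leave lymph nodes. It measured 7.83, 6.80 and 7.07 in KO and 6.94, 6.94 and 7.32 in WT (log2 level). KO replicate 1 was again the highest array, and KO replicate 2 was the lowest of all. The log2 difference was 0.17 ± 0.28 (SE), with a 95% interval from -0.50 to 0.83 (limma adjusted p = 0.844). It was -0.13 without KO replicate 1.

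Lef1, which encodes an HMG box factor partly redundant with the product of Tcf7, measured 7.87, 7.66 and 7.96 in KO and 7.69, 8.09 and 8.15 in WT (log2 level). The genotypes overlapped, with WT replicate 1 among the KO levels. The log2 difference was -0.15 ± 0.17 (SE), with a 95% interval from -0.54 to 0.25 (limma adjusted p = 0.764). With 1 array left out it stayed below 0, between -0.29 and -0.060.

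**Figure D3:**
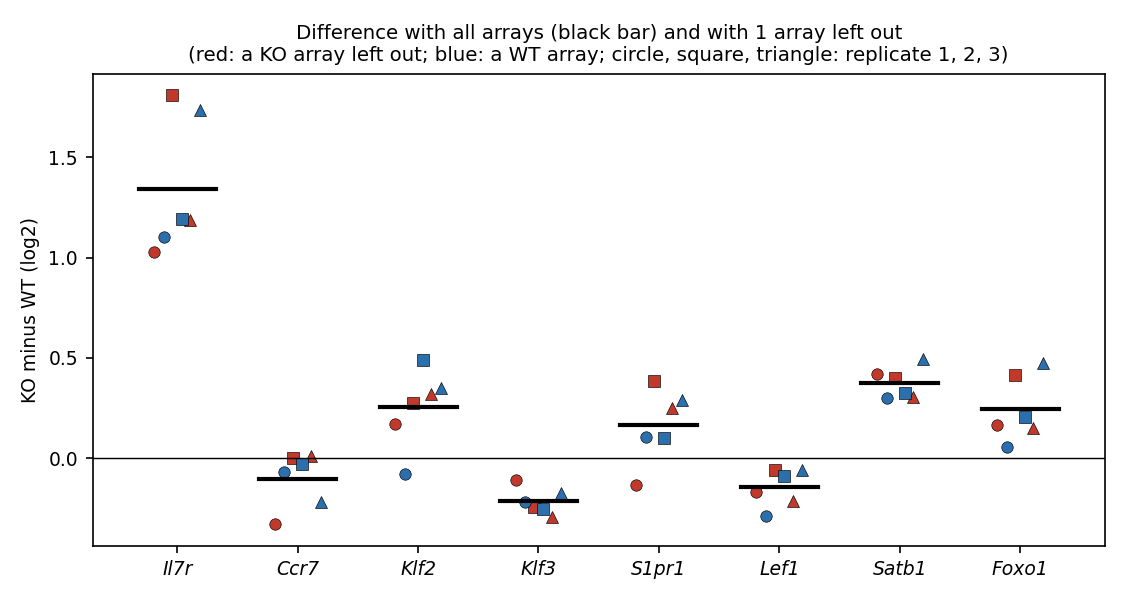
Log2 difference KO minus WT (vertical axis) of the 8 members with all arrays (black bar) and with each array left out in turn (points, coloured by the genotype and shaped by the replicate of the missing array). Il7r, Satb1 and Foxo1 stay above 0 and Klf3 and Lef1 below it, whereas Klf2, S1pr1 and Ccr7 cross it.

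Array levels of the members crossed the genotypes. Averaged over the 8 members, the level relative to the mean of all arrays was 0.34, -0.15 and 0.17 on KO replicates 1, 2 and 3 and -0.37, -0.11 and 0.13 on WT replicates 1, 2 and 3. WT replicate 1 was the lowest array in 4 members and KO replicate 1 the highest in 3, and WT replicate 3 was above the 6-array mean in 7 of 8. The smallest root mean square differences between members were those of Klf3 and Lef1 (0.20) and of Satb1 and Foxo1 (0.21). This measure takes in the size of changes, and Klf3 and Lef1 spanned only 0.52 and 0.49 log2 units. Their nearness therefore does not show that their profiles have the same shape.

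Proliferation differed between the same arrays. All 17 tested genes of a proliferation list were lower in KO, with a median of -0.62, among them the mitotic kinase genes Bub1 (-0.37) and Aurkb (-0.49). None had an adjusted p under 0.05, and 5 had an unadjusted limma p under 0.05, against 7.43% of all genes. The median was -0.30 without KO replicate 1. Averaged over the list, KO replicate 1 was at -0.82, KO replicates 2 and 3 were at 0.081 and -0.12, and the WT arrays ranged from 0.20 to 0.37. Hypoxia response genes, with Vegfa (0.65) and Ddit4 (0.52) at the smallest p, were at 0.82 on KO replicate 1 and between -0.27 and 0.019 elsewhere. Of that list 8 of 10 were higher in KO, with a median of 0.18 that became -0.23 without KO replicate 1, 0.36 without KO replicate 2 and 0.40 without KO replicate 3. The part of either list in the levels of Il7r, S1pr1 and Ccr7 on KO replicate 1 was not tested.

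**Figure D4:**
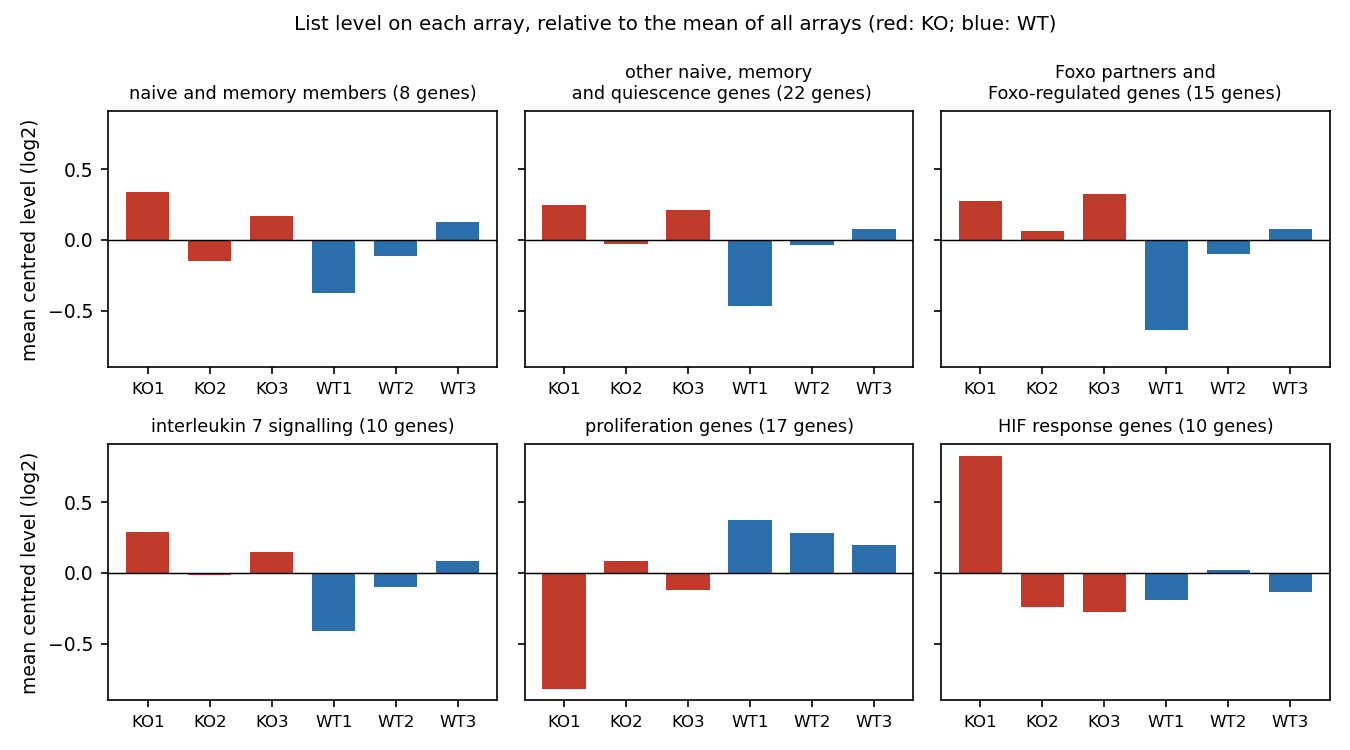
Mean level of 6 gene lists on each array, relative to the mean of all arrays (log2, vertical axis), with KO arrays in red and WT arrays in blue. WT replicate 1 is lowest in the naive, Foxo and interleukin 7 lists, and KO replicate 1 stands apart in the proliferation (-0.82) and hypoxia (0.82) lists.

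Other genes of naive, memory and quiescent T cells were mostly higher in KO. Of 22 tested, 18 were higher and 4 lower, with a median log2 difference of 0.35. None passed the adjusted test, while 3 had an unadjusted limma p under 0.05, all of them higher, where 3.57% of all genes were so. Bach2, a repressor that restrains effector genes, differed by 0.36 ± 0.13 (SE), with levels of 11.1, 10.9 and 11.2 in KO and 10.6, 10.8 and 10.7 in WT that did not overlap. Zfp36l2, which encodes an RNA decay factor, differed by 0.42 ± 0.16 (SE). Igfbp4, at 0.82, falls outside the naming rule and was chosen after its values were seen, as were Foxp1, a factor that enforces quiescence, at -0.27, and Id3 at -0.43 among the lower genes. The median was 0.16 without WT replicate 1, which had the lowest level of the list (-0.47), and 0.26 without KO replicate 1.

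Around Foxo1, 13 of 15 partners and regulated genes were higher in KO and 2 lower, with a median of 0.33. Adjusted, 0 passed, while 4 had an unadjusted limma p under 0.05, all higher, where 3.57% of all genes were so. Trib2, a pseudokinase gene, measured 11.2, 11.2 and 11.7 in KO and 8.94, 10.2 and 10.8 in WT, a log2 difference of 1.38 ± 0.46 (SE). Bcl6, a transcriptional repressor that drives the follicular helper fate, differed by 1.59 ± 0.55 (SE), with WT replicate 1 at 5.65. The genotypes did not overlap in either, and WT replicate 1 was the lowest array in both. Without that array the median of the list was 0.11, with 10 higher and 5 lower, and without WT replicate 3 it was 0.57. The list holds genes of kinases that act on Foxo1, such as Akt1 and Akt2, beside genes that Foxo factors regulate. Its counts therefore give no direction of Foxo1 activity, which was not tested.

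In the interleukin 7 pathway, 8 of 10 genes downstream of or beside the receptor were higher in KO, with a median of 0.27. Of these, 0 passed the adjusted test and 2 had an unadjusted limma p under 0.05, both higher, where 3.57% of all genes were so. Bcl2l11, the gene of the pro-apoptotic protein Bim, which is also in the Foxo list, differed by 0.87 ± 0.34 (SE), and Mcl1, a survival gene, by 0.28 ± 0.11 (SE). Both had no overlap between genotypes. Bcl2, a survival gene that interleukin 7 maintains, measured 9.03, 8.14 and 8.26 in KO and 8.46, 8.26 and 8.95 in WT, a difference of -0.077 within the spread (chosen after its values were seen). The median of the list was 0.14 without WT replicate 1. Since the list holds a pro-apoptotic gene beside survival genes, its counts give no direction of interleukin 7 signalling, which was not tested. Il7 itself averaged 3.65 and was left out by the filter on low values.

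Partners of Tcf7 and Lef1 had a median of 0.045, with 9 of 13 higher and 0 past the adjusted test. Unadjusted, 1 passed, against 7.43% of all genes. It was Apc, a scaffold of beta-catenin destruction, at 0.30 ± 0.12 (SE). The corepressor gene Tle5 differed by 0.28. Without WT replicate 1 the list stood at 6 higher and 7 lower with a median of -0.045, and without KO replicate 3 at 6 and 7 with a median of -0.018, so its sign rested on single arrays. Of 16 egress and homing genes 13 were higher, with a median of 0.21 that became 0.12 without WT replicate 1 and 0.097 without KO replicate 3. Adjusted, 0 passed, and unadjusted 1 did, against 7.43% of all genes. That 1 was Sgpl1, the lyase that degrades sphingosine 1-phosphate, at 0.53 ± 0.14 (SE), with KO arrays from 6.96 to 7.37 and WT arrays from 6.53 to 6.68. Cxcr4, a chemokine receptor gene that is also in the naive list, differed by 1.35 ± 0.57 (SE) and overlapped. Its levels were 11.7, 9.54 and 10.2 in KO and 8.58, 9.29 and 9.61 in WT, so KO replicate 1 was far above the rest.

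Genes of activated T cells stood beside these as a contrast in state. Of 13 tested, 5 were higher and 8 lower, with a median of -0.12. Cd44, an adhesion receptor that rises on memory and effector cells, differed by -0.57 ± 0.19 (SE) without overlap, and Batf, an activation-induced factor, by 0.72 ± 0.25 (SE). Effector genes were mostly on the same side as the naive genes, 11 of 16 being higher with a median of 0.40. Gzma (3.08) and Prf1 (1.27), which encode granule proteins of cytotoxic cells, had the smallest p. In these lists 0 genes passed the adjusted test, and 2 activation and 6 effector genes had an unadjusted limma p under 0.05, against 7.43% of all genes. The activation genes were 1 higher and 1 lower, and the effector genes 4 higher and 2 lower. The lower effector genes were Fasl (-1.33) and Ifng (-1.17), named after their values were seen. Without WT replicate 1 the activation median was -0.018 and the effector median 0.39. The effector list stood at 9 higher and 7 lower with a median of 0.32 without KO replicate 3. Without KO replicate 3 the activation list turned to 7 higher and 6 lower with a median of 0.058, and leaving out KO replicate 1 or 2 or WT replicate 2 or 3 gave it medians from -0.20 to -0.029.

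Markers of the sorted cells and of others were compared across the same arrays. Markers of CD4 T cells were present on all arrays, with list means of 11.2 to 11.4 in KO and 10.8 to 11.3 in WT (log2 level), and 7 of 8 were higher in KO (median 0.22, or 0.038 with 4 of 8 higher without WT replicate 1), Cd28 by 0.67 and Zbtb7b by 0.48. The list was lowest on WT replicate 1 (-0.42), the array on which 4 members were lowest. Markers of CD8 T cells lay between 6.71 and 7.15 in KO and 6.95 and 7.25 in WT, with Crtam at -0.49 and Cd8b1 at 0.096, and 2 of 3 were higher (1 without WT replicate 3 and 0 without KO replicate 3).

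Some of the naive genes, though not all, are also carried by resting B cells. The B cell marker list averaged 5.77 to 6.32 in KO and 5.68 to 6.43 in WT, with 4 of 5 tested genes higher (median 0.14). Without KO replicate 1 this was 2 of 5 with a median of -0.0093, and without WT replicate 3 it was 1 of 5 with a median of -0.12. Among them Ms4a1, which encodes CD20, was at 6.39, 7.85 and 6.45 in KO and 8.02, 8.22 and 6.55 in WT (difference -0.70), Ebf1 differed by 0.14, and Pax5 averaged 4.52 and was left out by the filter on low values. The B cell list was highest on WT replicate 1 (0.41), where the members were lowest, and lowest on the replicate 3 arrays (-0.42 in KO and -0.54 in WT). Of NK cell markers 2 were tested, Klrd1 (0.36) and Klrk1 (-0.13), and list means were 4.88 to 4.98 in KO and 4.74 to 5.16 in WT. Of 5 macrophage and monocyte markers 4 were higher, with Fcgr3 at 0.43 and Cd68 at 0.63, and means were 5.40 to 5.56 and 5.22 to 5.47. Of 2 dendritic cell markers, Flt3 (0.17) and Zbtb46 (0.010), both were higher (1 without KO replicate 2 or 3), with means of 4.91 to 5.09 and 4.83 to 5.00. Of neutrophil markers 0 of 6 passed the filter on low values, with means of 4.09 to 4.18 and 4.10 to 4.11, and of erythroid markers 1 did, Alas2 (-0.0081), with means of 4.35 to 4.58 and 4.25 to 4.46. The part of these markers in the members' levels was not tested.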

How the data were processed

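RNA of 6 cultures was hybridised to an Affymetrix array. The authors deposited log2 values computed by RMA (affy package), according to the submitters' processing notes, which give no versions here. RMA removes background, equalises the arrays' distributions and combines probes, and it compresses differences of dim genes. Detection calls were not used. Precision is limited by the number of arrays.

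Gene symbols came from GEO's platform annotation. The 22690 probe sets comprised 64 controls, 20380 with a single symbol, 691 with several symbols and 1555 unnamed here. Array medians lay between 6.45 and 6.49. A gene was represented by its brightest probe set, and the dimmest 25% of genes were dropped, leaving 9295 (lowest mean 4.72). The genotype difference was fitted in limma 3.58.1 under R 4.3.3 (lmFit, eBayes, two-sided, Benjamini-Hochberg over all genes, adjusted p under 0.05), and a second fit took all 22626 probe sets that are not controls. Single values also had an exact permutation test. A list level on an array is the mean of its genes' values minus their 6-array means. The labels name the samples of a genotype biological replicates.

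The members and lists were chosen with earlier results of these data known, so lists have counts and medians and no test. Named were all probe sets of the members, the 2 genes with the smallest p of each other list and the 5 genes most like Il7r. Neither 3′ UTR nor protein sequences were used here. Results were recomputed with a replicate block, each array left out, both replicate 3 arrays left out, median centring, further quantile normalization, other filters, averaged probe sets, a trended robust eBayes, a plain linear model, array weights (statmod 1.5.0) and an adjusted p under 0.1. The gene by gene form of array weights, and list values without single arrays, were chosen after seeing the data. On simulated data for KO against WT over 9295 genes, limma recovered 47.5%, 87.5% and 93% of 200 genes shifted by 1, 2 and 3 log2 units. False calls numbered 9, 16 and 16. The simulated noise was drawn independently for each gene and array, without the variation that genes share on the real arrays. These shares therefore do not tell how often such shifts would pass in the real fit, where 0 genes did.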

Additional observations from a re-analysis of the deposited data

How the results depend on the processing

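Of 18 alternatives, 6 change only the p values. In the other 12, 90 of 96 differences of the 8 members kept their direction, those of Il7r, Satb1, Foxo1, Klf3 and Lef1 in all 12. Leaving out 1 array at a time gave -0.33 to 0.011 for Ccr7, above 0 without KO replicate 2 (0.00084) or 3, -0.079 to 0.49 for Klf2, -0.13 to 0.38 for S1pr1 and -0.0072 to 0.33 for the median of the members. The count of genes past the adjusted test was 0 in every alternative except array weights, which gave 3575, and Il7r (1.81), Ccr7 (-0.43), Satb1 (0.57) and Foxo1 (0.46) then passed, with limma adjusted p from 0.0116 to 0.0350, while Klf2 was at -0.20. Those weights put 5.55 on KO replicate 3 and 5.04 on WT replicate 2 and 0.27 to 0.58 on the other arrays, so that fit rests largely on 1 array per genotype. The gene by gene form of the weights gave 0, with Klf2 at -0.028. Leaving out 1 array moved the count of genes with an unadjusted p under 0.05 from 691 to between 276 (without WT replicate 1) and 1542 (without KO replicate 2).

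Same-numbered arrays of the 2 genotypes had correlations of their deviations of -0.042, 0.64 and 0.40, while their sex-linked transcripts matched by number. The deviations also hold what is particular to a single array, so they cannot show whether the numbers pair the samples. With the replicate number as a block 0 genes and 0 probe sets passed and 918 genes had an unadjusted limma p under 0.05, with Il7r at 1.34 and Satb1 at 0.37 (adjusted p = 0.478 each). The block changed no call. With 3 arrays a genotype, differences the size of those of Ccr7, Klf2, S1pr1, Lef1 and Foxo1 could not be told from the spread. Those of Il7r, Satb1 and Klf3 did not pass in the main fit either (limma adjusted p = 0.631, 0.631 and 0.640).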
